A study of Mus musculus with 8 samples.

Results

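Chemokine genes were followed in RNA from tubuloids, which are tubule-like structures grown in Matrigel from fragments of mouse kidney. The members were all genes of the deposited table whose symbols follow the Ccl or Cxcl naming pattern, together with Cx3cl1 and Xcl1. The rule found 39 of 24063 genes and used no measured value. The labels give postnatal day 7 to 10 kidney for all 8 libraries, whereas the study's methods give an earlier age, and all carried floxed Pkd2 alleles, the Pax8rtTA transactivator, which the Pax8 promoter drives, a Cre recombinase under its control (TetOCre) and the mTmG reporter. Doxycycline (DOX, 4 libraries) switches on Cre in cells that use the Pax8 promoter, which are epithelial. The controls received dimethyl sulfoxide (DMSO, 4 libraries) and carried the same alleles. Treatment began on day 3 of culture and lasted 3 days, and RNA was taken on day 7. The comparison asked what changes early after Pkd2, which encodes polycystin-2, is deleted. No library received doxycycline without the Cre alleles. Differences that follow doxycycline itself, Cre activity or Pkd2 loss therefore cannot be told apart here. A library is named here by its group and the number in its title.

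Chemokines are small secreted proteins that direct the migration of leukocytes and other cells through G protein-coupled receptors. CXC ligands with a Glu-Leu-Arg motif attract neutrophils through Cxcr2, most CC ligands attract monocytes, lymphocytes or eosinophils, and a few ligands such as Cxcl12 are made constitutively by stromal cells. Injured renal tubule cells are a known source of several of them, and transcription of the inflammatory members is commonly driven by NF-κB. Cx3cl1 and Cxcl16 are unusual in being made as transmembrane proteins, which proteases such as Adam17 and Adam10 release.

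Promoter sequences are shown first for the members with a match to the κB motif, the DNA element of NF-κB, that are described below or that neighbour one of these genes. RefSeq promoter windows on GRCm38.p6 were found for 27 of the 39 genes. The 250 bases before the transcription start held a κB match, searched on both strands, in 7 of these 27 genes (25.9%), against 8.23% of 27025 genes with a window. The windows of Ccl20 at chr1:83116516-83116765, Cxcl1 at chr5:90890995-90891244, Cxcl2 at chr5:90903649-90903898 and Cxcl3 at chr5:90785851-90786100 are printed 5′ to 3′. All 4 genes lie on the plus strand, and capitals mark the match.
Ccl20: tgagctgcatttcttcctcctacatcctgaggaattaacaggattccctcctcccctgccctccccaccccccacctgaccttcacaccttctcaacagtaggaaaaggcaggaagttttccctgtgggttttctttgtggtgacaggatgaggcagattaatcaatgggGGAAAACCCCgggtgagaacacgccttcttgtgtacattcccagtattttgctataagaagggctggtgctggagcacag
Cxcl1: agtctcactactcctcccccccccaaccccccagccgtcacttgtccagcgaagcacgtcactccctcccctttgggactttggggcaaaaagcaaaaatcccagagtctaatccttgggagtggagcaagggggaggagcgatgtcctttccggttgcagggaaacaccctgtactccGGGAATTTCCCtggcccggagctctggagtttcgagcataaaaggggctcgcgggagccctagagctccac
Cxcl2: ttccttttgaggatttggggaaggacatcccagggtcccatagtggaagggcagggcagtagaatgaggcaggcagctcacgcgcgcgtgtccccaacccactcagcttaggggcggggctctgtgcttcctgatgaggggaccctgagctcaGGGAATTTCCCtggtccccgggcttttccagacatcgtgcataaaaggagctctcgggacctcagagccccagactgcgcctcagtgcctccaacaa
Cxcl3: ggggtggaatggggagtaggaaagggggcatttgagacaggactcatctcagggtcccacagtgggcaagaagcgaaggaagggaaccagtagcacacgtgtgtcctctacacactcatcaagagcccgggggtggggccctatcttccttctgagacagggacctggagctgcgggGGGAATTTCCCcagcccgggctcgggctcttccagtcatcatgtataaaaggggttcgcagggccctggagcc
The match began 80 bases before the start of Ccl20. In Cxcl1, Cxcl2 and Cxcl3 the same 11 bases matched on both strands at 71, 97 and 73 bases before the start. The other 3 genes with a match were Ccl1, Ccl9 and Cxcl10. No κB match lay in any window of Cxcl12, Cxcl14, Cx3cl1, Ccl27a or Ccl25. The 12 genes without a window, among them Cxcl5, Cxcl16 and Ccl2, were not searched. The AP-1 motif TGANTCA, which reads the same on both strands, lay in windows of 4 of the 27 genes, against 7.82% of all genes. A match is a run of letters in the reference and was not measured as binding here.

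The targeted gene was examined first. For Pkd2 the mean normalised read count was 6130 ± 1114 with DMSO and 4946 ± 772 with DOX (SD over 4 libraries). DESeq2 gave it a log2 fold change of -0.31 with an adjusted p of 0.999, so whole-transcript counts did not separate the groups. At the protein level, the study reported less polycystin-2 on western blots of doxycycline-treated tubuloids, with some still detected. The depth per library was 63922677 to 102716313 summed transcript counts. DMSO 20 and DOX 19 stood apart, with counts for 13243 and 13599 genes against 17054 to 17903 in the others. DMSO 15 had the highest summed level of 8 stromal markers, 3827 TPM (a level scaled by transcript length and library depth) against 301 to 1056 in the other 7 libraries, and the lowest of 8 renal epithelial markers, 461 TPM against 599 to 2060. In bulk RNA, fewer cells of a type and less RNA per cell cannot be told apart.

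Chemokine transcripts made up 0.0295% to 0.122% of all TPM, and a few ligands carried most of it. Of the 39 genes, 32 had a count in some library, 15 reached a mean of 1 TPM and 7 were at 0 throughout (Ccl19, Ccl21a, Ccl21b, Ccl21c, Ccl22, Ccl26 and Xcl1). The 10 highest by mean TPM were, in order, Ccl20 (207), Cxcl12 (79.6), Cx3cl1 (52.3), Cxcl16 (45.5), Ccl27a (38.5), Cxcl5 (38.2), Cxcl14 (19.6), Ccl2 (18.8), Ccl25 (16.7) and Cxcl1 (15.5). These means pool both groups. Ccl20 averaged 334 TPM with DMSO and 80.7 TPM with DOX, and Cxcl5 60.03 and 16.4 TPM. Without DMSO 20 the mean of Ccl20 was 128 TPM, and without DMSO 15 that of Cxcl12 was 53.2 TPM, below Cx3cl1 at 56.2 TPM. The ranges over libraries overlapped for every pair of neighbours in this order, so the order of neighbours was not resolved. These 10 genes kept their place among the 10 highest when any 1 library was left out, without DMSO 20 and DOX 19, and with 1 transcript per gene. Reads shared by isoforms were counted for each isoform, and both Ccl20 transcripts had nearly the same counts. With 1 transcript per gene, Ccl20 averaged 103 TPM, Cxcl12 52.7 TPM and Ccl27a 14.1 TPM, and Ccl20 and Cxcl12 were still the highest.

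**Figure D1:**
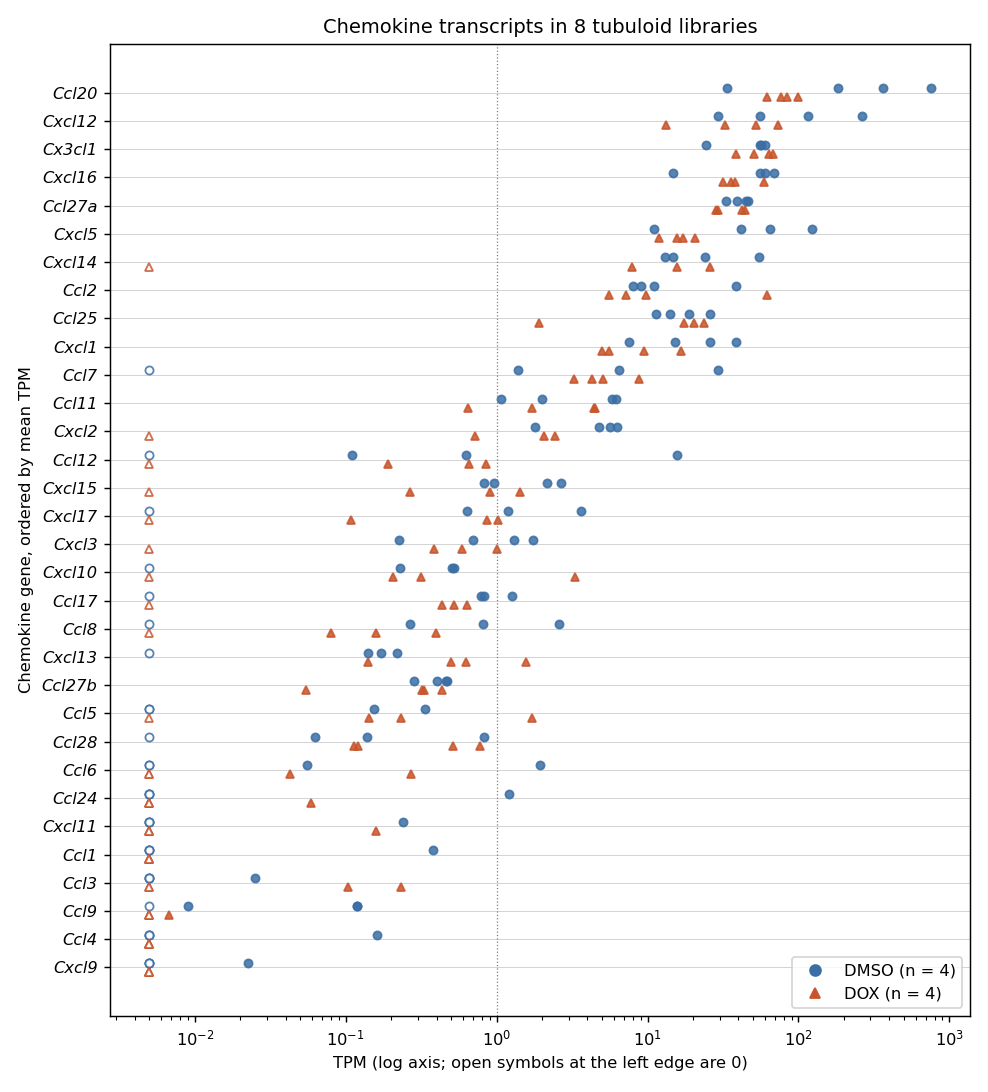
Level of each of the 32 chemokine genes with a count, in TPM on a log axis, for 4 DMSO (circles) and 4 DOX (triangles) libraries. Genes are ordered by mean TPM, open symbols are libraries at 0, and the dotted line marks 1 TPM. The DOX and DMSO symbols overlap for each of the 10 highest genes.

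Summed over all 39 genes, chemokine transcripts were lower in every DOX library than in every DMSO library. The sums were 507, 796, 522 and 1225 TPM in DMSO 3, 5, 15 and 20, and 295, 318, 382 and 389 TPM in DOX 9, 12, 19 and 21. The mean with DOX was 0.454 of the mean with DMSO (346 ± 46.7 against 762 ± 336 TPM, SD, n = 4 each). The ranges also did not overlap with 1 transcript per gene, at 378 to 776 TPM in DMSO and 214 to 300 TPM in DOX libraries. With all transcripts summed they were 507 to 796 and 295 to 389 TPM without DMSO 20 and DOX 19. Ccl20 and Cxcl12 made up 41.6% to 71.4% of the sum in DMSO and 34.4% to 38.2% in DOX libraries. Without these 2 genes the sums were 224 to 380 TPM in DMSO and 183 to 252 TPM in DOX libraries, and the groups overlapped. They also overlapped without Cxcl12 alone, at 258 to 1110 TPM in DMSO and 282 to 337 TPM in DOX libraries. Without Ccl20 alone they did not, at 325 to 488 TPM in DMSO and 196 to 320 TPM in DOX libraries. The sum is a description of these libraries and carries no test.

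**Figure D2:**
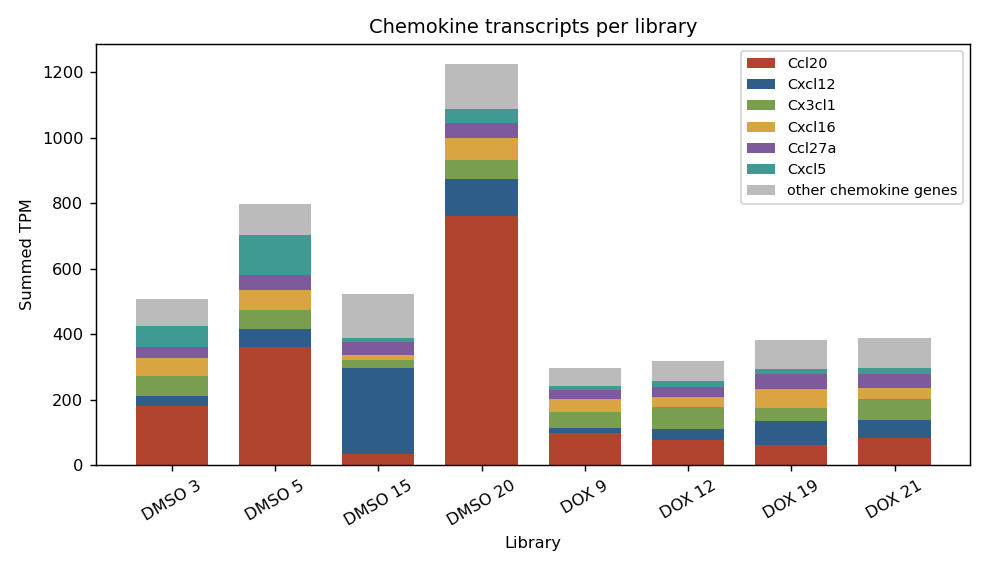
Summed TPM of all 39 chemokine genes in each library, with the 6 highest genes in separate colours and the others in grey. The DMSO bars reach 507 to 1225 TPM and the DOX bars 295 to 389 TPM; Ccl20 dominates DMSO 20 and Cxcl12 dominates DMSO 15.

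No single chemokine gene passed the test across all genes. DESeq2 called 25 of 17011 genes with an adjusted p (0.147%), where called genes had changed 1.5-fold or more at an adjusted p no larger than 0.05. Of the 39 chemokine genes, 27 had a p, 23 had an adjusted p, and 0 were called; 5 had counts but no p, since DESeq2's Cook's distance filter marked an outlying library (Ccl2, Ccl6, Ccl12, Ccl24 and Cxcl10). An unadjusted p under 0.05 was found for 4 members, Cxcl5, Ccl20, Cxcl1 and Cxcl12, all lower with DOX, which is 4 of 27 against 2.47% of all genes with a p that were lower at that threshold. Without DMSO 20 and DOX 19 the members under that p were 5 of 28, Cxcl5, Cxcl12, Cxcl2, Ccl8 and Ccl9, all lower with DOX, against 3.32% of all genes. Ccl20 and Cxcl1 were no longer among them. The quasi-likelihood test of edgeR called 0 of 15562 genes (0%), and 476 genes had an unadjusted p under 0.05. Among 22 members in that test, Ccl20 and Cxcl5 had an unadjusted p under 0.05 and were lower with DOX, against 1.5% of all genes. The DOX and DMSO ranges overlapped for all 28 members with a mean count of at least 2, whereas 2.71% of genes had ranges that did not. Of the 27 members with a p, 22 had a log2 fold change below 0 (81.5%), against 55.5% of all genes. The median log2 fold change was -1.16 for these 27 members and -0.07 for all 19268 genes with a p. For the 26 of these 27 members that had a fold change, the median was -0.63 without DMSO 15, against -0.03 for all genes. Without DMSO 20 and DOX 19 it was -0.94, also over 26 of the 27, against -0.06 for all genes. The members were measured in the same 8 libraries, so they are not replicates of each other.

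Epithelial and mucosal ligands held the most abundant chemokine. Ccl20, the ligand of Ccr6 that recruits T helper 17 cells and dendritic cells to mucosal surfaces, lies on chromosome 1 from 83116766 to 83119167. Its normalised read counts were 6835, 10699, 1276 and 23729 in DMSO 3, 5, 15 and 20, and 3331, 2123, 2123 and 2810 in DOX 9, 12, 19 and 21. Both the highest and the lowest library were DMSO, and the 4 DOX libraries lay in a narrow band within that range. The log2 fold change was -2.03 (SE 0.705; DESeq2 unadjusted p = 0.00391, adjusted p = 0.429). Without DMSO 15 it was -2.40 with an adjusted p of 0.000416, and without DMSO 20 it was -1.27 with an adjusted p of 0.676. Without DMSO 20 and DOX 19 it was -1.15 (unadjusted p = 0.0787 by DESeq2). Within DMSO the SD of log2 normalised counts was 1.78, against 0.32 in DOX libraries.

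Neutrophil ligands were lower in direction for all 5 members, as were 55.5% of all genes with a p. By DESeq2, 2 of the 5, Cxcl5 and Cxcl1, had an unadjusted p under 0.05, against 2.47% of all genes lower at that threshold. Ppbp, a chemokine that the naming rule left out, is not in these counts and had a log2 fold change of 0.44. Cxcl5, a Cxcr2 ligand made by epithelial cells, lies on chromosome 5 from 90759298 to 90761625. Its normalised read counts were 5025, 7527, 871 and 2700 in DMSO 3, 5, 15 and 20, and 823, 1181, 1113 and 1185 in DOX 9, 12, 19 and 21. DMSO 15 lay among the DOX libraries, and the other 3 DMSO libraries lay above all of them. The log2 fold change was -1.91 (SE 0.587; DESeq2 unadjusted p = 0.00116, adjusted p = 0.257). Leaving out DMSO 15 gave -2.24 and an adjusted p of 3.99e-05. Without DMSO 20 and DOX 19 the log2 fold change was -2.04 with an adjusted p of 0.194.

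Cxcl1, which shares the κB stretch printed above with its neighbours Cxcl2 and Cxcl3, lies on chromosome 5 from 90891245 to 90893121. It had 676, 917, 339 and 1419 normalised counts in DMSO 3, 5, 15 and 20, and 222, 164, 382 and 658 in DOX 9, 12, 19 and 21. DMSO 15 again fell within the DOX range. The log2 fold change was -1.23 (SE 0.595; DESeq2 unadjusted p = 0.0381, adjusted p = 0.886), and -0.85 without DMSO 20 and DOX 19 (DESeq2 unadjusted p = 0.175). Cxcl2, another Cxcr2 ligand, had means of 208 ± 84.8 and 57.2 ± 52.1 normalised counts in the DMSO and the DOX group (SD over 4 libraries), a log2 fold change of -1.86 and an unadjusted p of 0.103 by DESeq2. It was at 0 in DOX 19, and without that library and DMSO 20 the log2 fold change was -1.43 (DESeq2 unadjusted p = 0.0378, adjusted p = 0.666). Cxcl15 and Cxcl3 averaged 1.15 TPM and under 1 TPM, and both were also at 0 in DOX 19. In Cxcl2 and Cxcl3, 1.94% and 3.82% of 75-base windows of the transcripts were shared with the other gene.

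Leaving out DMSO 15 was the only setting tried in which a chemokine gene was called. DESeq2 then called 75 genes, and 33 of 13039 genes with an adjusted p were called lower with DOX (0.253%), among them Ccl20 and Cxcl5. The edgeR test without DMSO 15, added after the data were seen, gave both genes unadjusted p-values of 0.000481 and 0.000252 but an adjusted p of 0.9998, and called 0 genes. In DMSO 15, the epithelial adhesion molecule Epcam and the keratins Krt8 and Krt18 were at 46.6, 151 and 194 TPM, against 90.5 to 390, 157 to 597 and 221 to 627 TPM in the other 7 libraries. The part of cell composition in the Ccl20 and Cxcl5 differences was not tested.

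**Figure D3:**
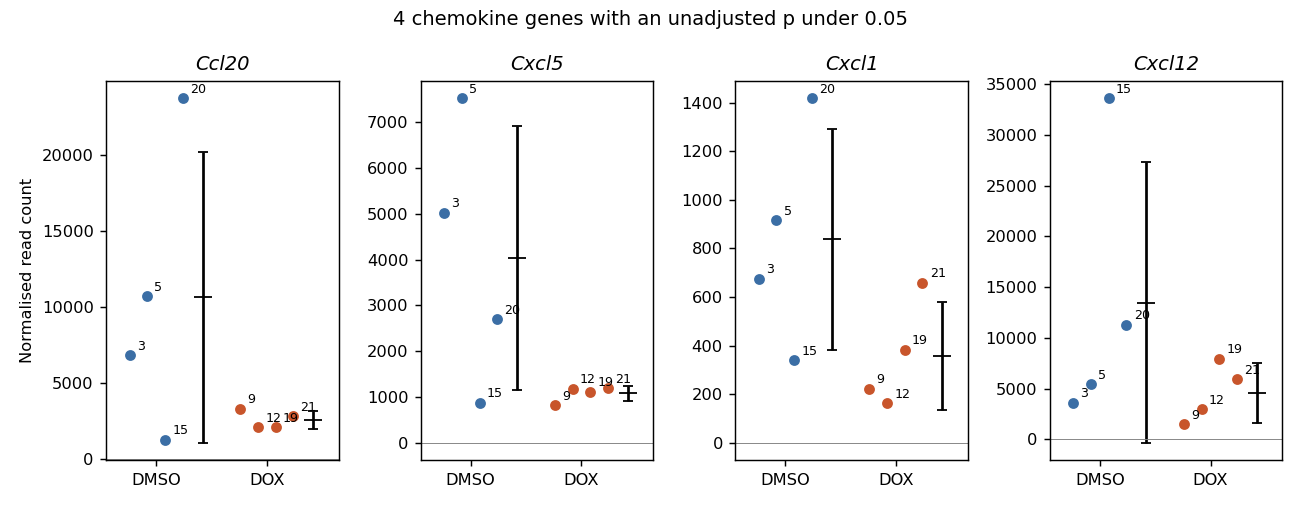
Normalised read count of Ccl20, Cxcl5, Cxcl1 and Cxcl12 in each library, labelled with the library number; bars are mean ± SD, n = 4 per group. DMSO 15 is the lowest DMSO library for the first 3 genes and the highest library for Cxcl12, and the DMSO and DOX values overlap for all 4 genes.

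Cxcl12, the constitutive stromal ligand of Cxcr4 and of the scavenging receptor Ackr3, was highest in the stromal-rich library, DMSO 15. The gene lies on chromosome 6 from 117168535 to 117181368. It had 3600, 5435, 33630 and 11279 normalised counts in DMSO 3, 5, 15 and 20, and 1461, 2954, 7947 and 5897 in DOX 9, 12, 19 and 21. DMSO 15 held by far the highest value. The log2 fold change was -1.56 (SE 0.766; DESeq2 unadjusted p = 0.0413, adjusted p = 0.909) and shrank to -0.57 without DMSO 15 (adjusted p = 0.894). It was -2.05 without DMSO 20 and DOX 19 (DESeq2 unadjusted p = 0.0147, adjusted p = 0.477). Of 8 stromal markers, 6 were highest in DMSO 15, among them collagens Col1a1 (732 TPM against 37.1 to 178 TPM in the others) and Col3a1 (895 against 80.9 to 328 TPM) and smooth muscle actin Acta2 (1212 against 40.7 to 258 TPM). Pdgfrb and Pdgfra, receptors of pericytes and fibroblasts, were not, at 163 TPM in DMSO 15 against 78.8 to 313 TPM and at 12.2 TPM against 0.149 to 37.2 TPM. In the other 7 libraries the order of Cxcl12 was not that of the stromal sum. DMSO 3 and DOX 9, with stromal sums of 1056 and 1028 TPM, had the lowest Cxcl12 of their groups, at 29.3 and 13.3 TPM, whereas DMSO 5 and DOX 19, with sums of 301 and 644 TPM, had 55.7 and 73.4 TPM. Col1a1 itself had a log2 fold change of -1.85 (DESeq2 unadjusted p = 0.0335, adjusted p = 0.873), and -0.31 without DMSO 15. Whether stromal content accounts for the Cxcl12 difference was not tested.

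**Figure D4:**
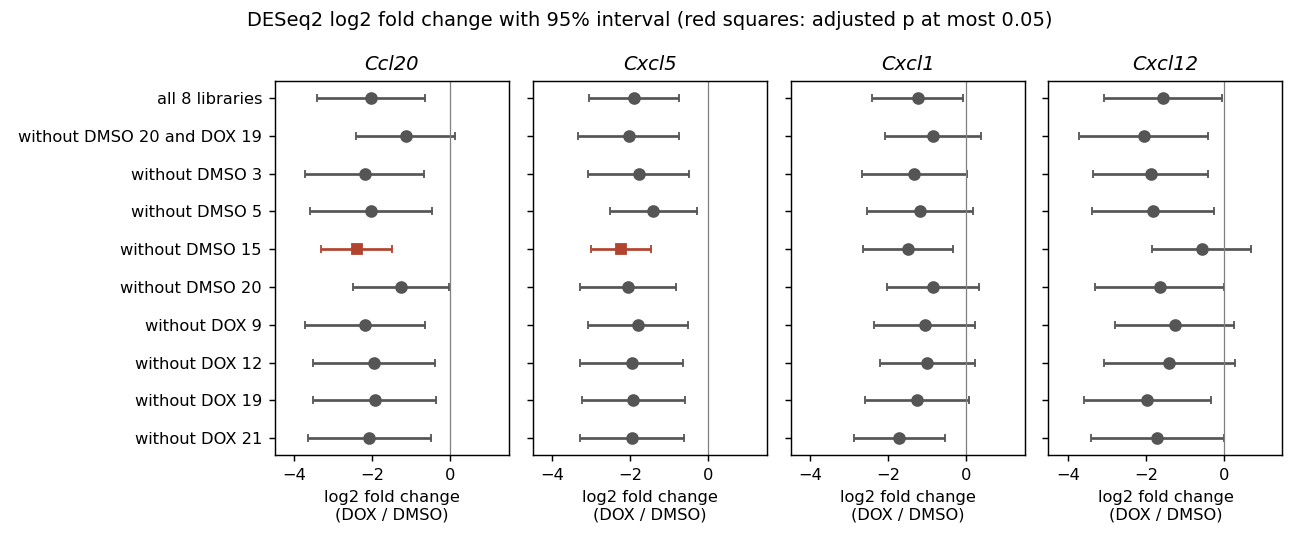
DESeq2 log2 fold change (DOX over DMSO) with 95% interval for Ccl20, Cxcl5, Cxcl1 and Cxcl12, with all 8 libraries, without DMSO 20 and DOX 19, and without each library in turn. Ccl20 and Cxcl5 reach an adjusted p of at most 0.05 (red squares) without DMSO 15, and Cxcl12 moves from -1.56 to -0.57 in that setting.

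The remaining epithelial and homeostatic ligands had no unadjusted p under 0.05. Cx3cl1, which binds Cx3cr1, had 24.4 to 60.1 TPM in DMSO and 38.7 to 67.6 TPM in DOX libraries, with a log2 fold change of 0.09 and a 95% interval of -0.54 to 0.72. Cxcl16, the ligand of Cxcr6, had 14.7 TPM in DMSO 15 and 55.5 to 68.9 TPM in the other DMSO libraries, against 31.4 to 59.3 TPM with DOX. Its log2 fold change was -0.29 with a 95% interval of -1.23 to 0.64, and 18.6% of the windows of its transcripts also lay in Zmynd15. Ccl27a, a skin-homing ligand of Ccr10, had 33.2 to 46.0 TPM in DMSO and 28.5 to 44.4 TPM in DOX libraries. Because 44.9% of its windows also lie in other genes, among them Ccl27b, counts of these paralogs are uncertain. Ccl25, which guides cells to thymus and gut through Ccr9, had 11.4 to 25.8 TPM in DMSO libraries, 17.4 to 23.7 TPM in 3 DOX libraries and 1.90 TPM in DOX 19. Cxcl14, an epithelial and fibroblast ligand, was at 55.1 TPM in DMSO 15 and at 0 in DOX 19, with 13.1 to 24.1 TPM in the other DMSO and 7.91 to 25.8 TPM in the other DOX libraries. Its log2 fold change was -1.30 with a 95% interval of -3.89 to 1.28, and ran from -0.58 without DMSO 15 to -2.04 without DOX 21.

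The monocyte ligands turned on single libraries. Ccl2, the main ligand of Ccr2, had 302, 331, 344 and 1209 normalised counts in DMSO 3, 5, 15 and 20, and 188, 200.5, 2123 and 330 in DOX 9, 12, 19 and 21. The libraries with few detected genes, DMSO 20 and DOX 19, were the highest of their groups. The log2 fold change was 0.38 and turned to -0.43 without them. Ccl7, a neighbour of Ccl2 on chromosome 11, was at 29.3 TPM in DMSO 15, at 0 in DMSO 20, and between 1.40 and 8.74 TPM in the other 6 libraries. Ccl12, which lies in the same cluster, reached 15.7 TPM in DMSO 20 and stayed below 1 TPM elsewhere. Ccl11, the eosinophil ligand eotaxin, ranged from 0.644 to 6.18 TPM over all 8 libraries. The remaining groups, the interferon-inducible ligands Cxcl9, Cxcl10 and Cxcl11, the inflammatory CC ligands Ccl3, Ccl4, Ccl5, Ccl6 and Ccl9, the Ccr4 and Ccr8 ligands and lymphotactin, each summed to at most 3.33 TPM in any library. Means below 1 TPM were also found for Ccl8, Ccl24, Ccl27b, Ccl28, Cxcl13 and Cxcl17, and none had an unadjusted p under 0.05 with all 8 libraries. Cxcl13, a B cell attractant, was highest in DOX 19 and at 0 in DMSO 20, and its log2 fold change of 2.29 became 1.07 without them (DESeq2 unadjusted p = 0.0564 and 0.273).

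Chemokine genes varied more between libraries of a group than the median gene did. The median SD of log2(normalised count + 1) within groups was 1.33 for the 27 members with a p and 0.71 for all 19268 genes with one. Among genes with a mean of at least 1 TPM it was 1.28 for members and 0.54 for all genes, and 13 of 15 members lay above that median. Without DMSO 20 and DOX 19 the values were 0.99 and 0.37. In TPM, DMSO 15 was the highest library for 10 members, DMSO 5 and DMSO 20 for 7 each, and the 4 DOX libraries for 6 together. The highest library of some members differed in normalised counts. There Ccl27a and Ccl28 were highest in DOX 19 and Ccl25 in DOX 21, whereas Cx3cl1 was highest in DMSO 3. These medians are a description with no test.

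The receptors for these ligands were mostly at or near 0. Of 19 chemokine receptors, 2 reached a mean of 1 TPM and 0 had an unadjusted p under 0.05. Cxcr4 had 1.96 to 9.10 TPM, with a log2 fold change of 0.32 (DESeq2 adjusted p = 0.999), and the atypical receptor Ackr3 had 3.81 to 49.9 TPM, so both receptors of Cxcl12 were detected. Ccr6, the receptor of Ccl20, was at 0 in all 8 libraries, and Cxcr2, the receptor of Cxcl1 and Cxcl5, reached at most 0.01 TPM. Ccr2 was at 20.7 TPM in DMSO 20, the library with the highest Ccl12, and at most 3.56 TPM elsewhere. Ccr10, the receptor of Ccl27a, reached 3.897 TPM in DOX 19 and at most 0.513 TPM elsewhere, and the atypical receptors Ackr4 and Ccrl2 reached at most 3.88 and 3.82 TPM. Leukocyte markers bore on these values: Cd3e, a T cell marker, was at 0 throughout and Emr1, the macrophage marker F4/80, reached at most 0.02 TPM, while the summed level of 10 leukocyte markers, 4 of which reached a mean of 1 TPM, was 16.03 to 40.3 TPM in DMSO and 4.89 to 13.3 TPM in DOX libraries. These sums did not overlap, although each of the 10 markers did overlap between the groups. Ptprc and Cd68 reached 22.3 and 23.3 TPM, S100a8, a neutrophil and monocyte gene, was at 14.2 TPM in DMSO 20 and 12.2 TPM in DOX 19, and Lyz2, a myeloid gene, was at 13.3 TPM in DMSO 15. The part of leukocytes in the chemokine levels was not tested. Of 5 endothelial markers, Emcn alone exceeded 1 TPM, and Pecam1 and Kdr reached at most 0.698 and 0.394 TPM.

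Of 58 receptor, protease, NF-κB, cytokine and interferon response genes, 43 had an adjusted p and 1 was called, against 0.147% of all genes. These lists were chosen with earlier results of these data known, so this count is a description and carries no test. Nfkbiz, an inducible nuclear member of the IκB family that partners NF-κB at selected inflammatory promoters, had 55.3, 109, 43.2 and 95.6 TPM in DMSO 3, 5, 15 and 20 and 22.9, 48.8, 30.3 and 28.2 TPM in DOX 9, 12, 19 and 21. In normalised counts all DOX libraries lay below all DMSO libraries. DESeq2 gave a log2 fold change of -1.28 (SE 0.309) and an adjusted p of 0.0309, and edgeR an adjusted p of 0.999. The call was lost without DMSO 20 and DOX 19 (log2 fold change -1.16, adjusted p = 0.159) and without any 1 of DMSO 3, DMSO 5, DMSO 20, DOX 9, DOX 19 or DOX 21 (adjusted p from 0.0683 to 0.184), and it was made in 7 of 17 alternative settings in all. The other 9 of 10 NF-κB factors and inhibitors had no unadjusted p under 0.05, and the subunits Rela and Nfkb2 had log2 fold changes of 0.12 and -0.17. Tnfaip3, the NF-κB inhibitor A20, was the other gene of that list whose DOX libraries all lay below the DMSO libraries in normalised counts. It was at 39.8 TPM in DMSO 20 and at 0 in DOX 19, and its log2 fold change of -1.96 became -0.68 without them (DESeq2 adjusted p = 0.999 and 0.247). Among 9 inflammatory cytokines 0 were called, with an unadjusted p under 0.05 for Il6 and Il33 (log2 fold changes -3.05 and -1.28) and for Il1a (5.22, at 18.3 TPM in DOX 19 and 4.25 TPM in DOX 21 and below 1 TPM in the other 6 libraries). Il6 ranges did not overlap either, with at least 95.7 normalised counts in DMSO and at most 79.8 in DOX libraries, and 0 in DOX 19. Without DMSO 20 and DOX 19, Il6 was at -1.95 and Il1a at 2.86, and Il33 was at -0.72 without DMSO 15. Il1a was called in 1 setting, without DOX 12 (adjusted p = 0.0497). The growth factors Csf1 and Il34, the other abundant members of that list, had log2 fold changes of -0.10 and 0.01. Of 10 interferon response genes 0 were called, and Stat2 and Irf1 had log2 fold changes of -0.87 and -0.67 at unadjusted p-values of 0.0396 and 0.0285 by DESeq2, and of -0.50 and -0.45 without DMSO 20 and DOX 19. The interferon signalling factor Irf9 had a log2 fold change of -0.49. Of 5 proteases that cut chemokines 0 had an unadjusted p under 0.05, and Mmp2, Adam17 and Mmp9 were detected at 112 to 455, 95.6 to 276 and 33.04 to 174 TPM. The naming rule left out 2 further chemokines, Ppbp at 9.16 to 71.7 TPM and Pf4 at 0 to 10.2 TPM, with log2 fold changes of 0.44 and -0.37 (DESeq2 adjusted p = 0.999 for both).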

How the data were processed

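RNA was measured in 4 DMSO and 4 DOX tubuloid libraries, grouped by their titles. The authors made poly-A selected SMART-Seq v4 libraries, and STAR, featureCounts and DESeq2 are named, without versions, in the submitters' processing notes. The deposited counts are whole reads for each RefSeq transcript on mm10 (GRCm38). The deposited TPM is a length-scaled level that the authors made from the same reads. Counts and TPM were summed by gene symbol; counts were used for tests and TPM for levels. FPKM was not used. Reads in isoforms of a gene appear under each, so sums overstate reads, and how reads of paralogs or overlapping genes were assigned is not given in the sources used here.

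The groups were tested with DESeq2 1.42.0 (Wald test, R 4.3.3), its Cook's distance filter switched on, independent filtering at an alpha of 0.1 and Benjamini-Hochberg adjustment over all genes, beside the quasi-likelihood test of edgeR 4.0.16. Normalised read counts were counts divided by DESeq2 size factors. A call needed a 1.5-fold change and an adjusted p no larger than 0.05. On simulated data with known changes, DESeq2 recovered more of them than edgeR, but it made about as many false calls as true ones, whereas edgeR made few false calls. Genes described one by one were the 10 with the highest mean TPM and any with an unadjusted DESeq2 p under 0.05; other members and the pathway and marker lists were given by counts, with the genes under that p or the 3 highest of a list named, except 1 gene that is not reported here. Genes named outside this rule, such as other members, receptors and single markers, were chosen after their values were seen. The members and lists were chosen with earlier results of these data known. None of the 28 library pairs agreed within counting noise (chi-square divided by its degrees of freedom, 328.1 to 1066.1), so none was treated as 1 library deposited again; this does not show that libraries came from separate cultures. The labels do not say which cultures came from separate animals, so p-values measure the spread between these samples, which may be technical. Promoters and coordinates were those of RefSeq on GRCm38.p6, the assembly of mm10, and shared windows were read from GENCODE M21 transcripts. Alternatives were edgeR, TMM size factors, a minimum of 10 counts in every library, both filters off, 1 transcript per gene, and leaving out libraries.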

Additional observations from a re-analysis of the deposited data

Results flagged for a closer look

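4 of 22 group ranges examined held a library far from the others, where chance gives about 1 in 20. The gap to the nearest library, as a share of the group's range of log2 normalised counts, exceeded Dixon's 95% critical value in each. For Ccl2, DMSO 20 was the highest DMSO library (0.905). For Cxcl16, DMSO 15 was the lowest DMSO library (0.861). For Ccl25 and Cxcl14, DOX 19 was the lowest DOX library (0.864 and 0.844), and Cxcl14 had no count there.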

How the results depend on the processing

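No paired analysis was possible because the library numbers are not shared between the groups. The number of genes called, 25, became 0 with edgeR, 16 with at least 10 counts in every library, 48 without the Cook's distance filter, 51 in 3 against 3 libraries without DMSO 20 and DOX 19, and 14 to 75 when each library was left out in turn, the 75 without DMSO 15. In fits added after the data were seen, edgeR called 0 genes without DMSO 15 and 0 on 3 against 3 libraries. The number of chemokine genes called, 0, was 0 to 2 over the libraries left out, with 2 called without DMSO 15, and 0 in every other setting. Of 169 refits of the 10 genes described one by one, 9 turned direction, none of them called. Cx3cl1 became -0.11 without DMSO 15 (-0.10 with edgeR) and -0.02 without DOX 21. Ccl2 became -0.43 in 3 against 3 libraries (-0.45 with edgeR) and -1.18 without DOX 19. Ccl25 became 0.19 in 3 against 3 libraries (0.16 with edgeR) and 0.17 without DOX 19. With each library left out in turn, Cx3cl1 ran from -0.11 to 0.28, Ccl2 from -1.18 to 1.12 and Ccl25 from -0.51 to 0.17. Over all settings the log2 fold change ran from -2.40 to -1.15 for Ccl20 and from -2.24 to -1.41 for Cxcl5. The median spread of members with a p ran from 1.06 to 1.42. The cause of these shifts was not tested beyond the libraries named. With 4 libraries a group, the 95% intervals of the 10 genes described one by one ran from -0.74 to 0.35 for Ccl27a up to -3.89 to 1.28 for Cxcl14.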
